A study of Mus musculus with 6 samples.

Results

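Necroptosis is a form of programmed cell death in which the cell swells and its membrane breaks, and 10 genes of its machinery and of the proteins that hold it back were followed here in hypoxic cardiomyocytes treated with β-sitosterol (β-SITO). The genes were taken by name from the deposited gene counts, which list 57010 genes, and each of the 10 names was found. They are the sensor Zbp1, the kinases Ripk1 and Ripk3, the executor Mlkl, the caspase-8 complex of Fadd, Casp8, Cflar and Tradd, and the deubiquitinases Cyld and Tnfaip3. Heart muscle cells from newborn mice (NMCMs) in primary culture under hypoxia (HO) were given either vehicle (HO + Vehicle, libraries V1 to V3) or the plant sterol β-SITO (HO + β-SITO, libraries T4 to T6), with 3 RNA-seq libraries in each group. All 6 libraries therefore come from hypoxic cells, and no normoxic library was analysed here. The mice were C57BL/6, the cells were separated from fibroblasts by their slower attachment to the dish, and the dose of β-SITO, the hours of hypoxia and the vehicle of these libraries are not given in the sources used here.

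In the textbook pathway, death receptors, Toll-like receptors or Z-form nucleic acids sensed by ZBP1 bring RIPK3 into a filament with RIPK1 or ZBP1, and RIPK3 then phosphorylates MLKL, which inserts into the plasma membrane. Caspase-8, held as a heterodimer with cFLIP on the adaptor FADD, cleaves RIPK1 and RIPK3 and so keeps the pathway shut. Cardiomyocytes are long-lived cells with little capacity for renewal, and RIPK3-dependent death has been described in the ischaemic heart. Phosphorylation and cleavage, the steps by which these proteins act, were not measured in these libraries, which hold transcript counts only.

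Each library held between 16694734 and 18460522 counts, and expression is given as CPM, which relates a gene's counts to the library total corrected by TMM. Nothing states that the libraries of a group came from separate cultures, so the p-values measure only the spread between these libraries, which may be technical. Each pair of libraries within a group differed by more than the counting noise. The chi-square per degree of freedom was 4.71 to 7.51 among the vehicle libraries. It was 8.57 and 9.06 for T4 against T5 and T6, and 1.96 for T5 against T6, the closest pair. The names of the β-SITO libraries carry a suffix that the vehicle names lack, and a separate preparation cannot be told apart from the treatment. Summed cardiomyocyte markers, led by Myh6 (a myosin heavy chain), came to 7514 to 8623 CPM in the vehicle libraries, to 6747 CPM in T4 and to 11541 and 11739 CPM in T5 and T6, so that T4 stood apart from the other β-SITO libraries.

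All 10 genes were expressed well enough to be tested, and all 10 were lower in the HO + β-SITO group. Over the whole data set 14799 genes were tested, with a gene called lower at an adjusted p under 0.05 by edgeR's quasi-likelihood test and a change of more than 2-fold. By that rule 6 of the 10 genes fell (Zbp1, Tnfaip3, Mlkl, Cflar, Ripk3 and Cyld), where 10.1% of all tested genes did, and 0 rose, where 12.8% of all tested genes did. Without the fold limit 10 of 10 were lower, against 33.8% of all tested genes, and 9 of 10 without V1, V2, V3, T5 or T6, when Tradd did not pass. Every β-SITO library lay below every vehicle library for 10 of 10 genes, against 35.8% of all tested genes. The median log2 fold change of the 10 genes was -1.21, beside -0.01 over all tested genes. The 10 genes were chosen with earlier results of these data known, so these shares are a description and not a test. The decreases were uneven: 3 genes (Zbp1, Tnfaip3 and Mlkl) fell by more than 15-fold, while 4 (Fadd, Casp8, Ripk1 and Tradd) were lower by less than 2-fold. Because these are bulk cultures, fewer cells of a type and less RNA per cell cannot be told apart.

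**Figure D1:**
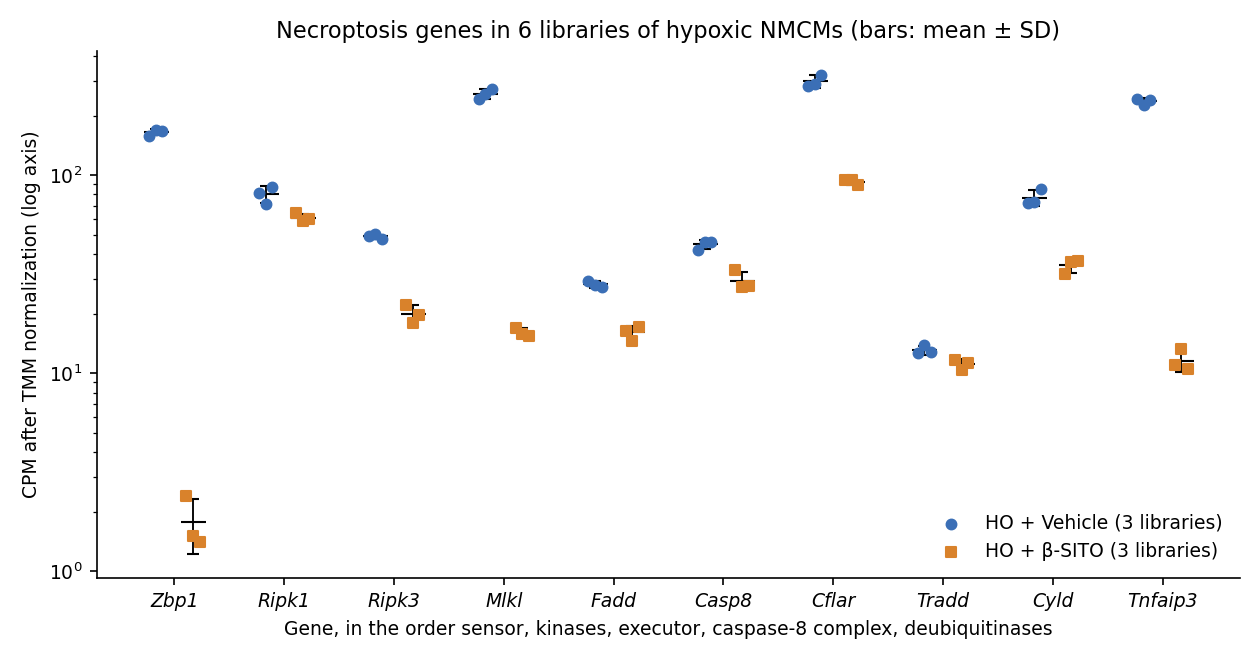
Level of each gene in each library. The vertical axis is CPM after TMM scaling on a log axis, circles are the 3 HO + Vehicle libraries, squares the 3 HO + β-SITO libraries, and bars the mean ± SD. No square reaches a circle of the same gene, and the gap runs from 12.7 against 11.6 CPM for Tradd to 159 against 2.42 CPM for Zbp1.

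Since these genes moved together, the 250 bases before their RefSeq transcription starts (mouse build GRCm38.p6, which differs from the build of the counts) were searched on both strands for sites of the factors that drive interferon and NF-κB genes. Windows were matched for 8 of the 10 genes, 10 windows in all because Ripk1 and Tnfaip3 have a pair of starts each, and Zbp1 and Tradd had none in the table used. An interferon-stimulated response element, searched as GAAA, any 2 bases and GAAA, stood in 2.98% of 32851 windows of the genome and in 0 of the 10. An interferon-gamma-activated site, searched as TTC, any 3 bases and GAA, stood in 7.02% of windows and in 1 of the 10, at one of the Ripk1 starts. The 10-letter κB consensus stood in 7.25% of windows and in 2 of the 10, at 1 of the Tnfaip3 starts and at Cyld, the deubiquitinase genes. The window of the other Tnfaip3 start held none of the 3 motifs. With 10 windows, these counts are not read as a difference from the shares over the genome. No matches of different motifs overlapped in these 10 windows. Printed 5′ to 3′ with the κB matches in capitals are the windows of Tnfaip3 (chr10:19015411-19015660, minus strand, matches beginning 125 and 12 bases before the start) and Cyld (chr8:88696778-88697027, plus strand, a match beginning 155 bases before the start). The window of Mlkl (chr8:111338206-111338455, minus strand), a gene that fell about as much as Tnfaip3, is shown with them because it holds none of the 3 motifs. A match is a string of letters in this window and was not measured as a bound site.
Tnfaip3: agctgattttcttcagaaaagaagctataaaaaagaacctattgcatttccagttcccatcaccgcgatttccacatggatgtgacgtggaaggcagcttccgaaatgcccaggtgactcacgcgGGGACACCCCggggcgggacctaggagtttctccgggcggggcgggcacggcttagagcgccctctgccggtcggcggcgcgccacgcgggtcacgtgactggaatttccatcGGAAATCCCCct
Cyld: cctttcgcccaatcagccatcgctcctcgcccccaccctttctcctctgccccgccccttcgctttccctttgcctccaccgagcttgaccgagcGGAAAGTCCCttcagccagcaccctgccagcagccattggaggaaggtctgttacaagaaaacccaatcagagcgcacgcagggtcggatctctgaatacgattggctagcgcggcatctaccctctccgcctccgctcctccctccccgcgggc
Mlkl: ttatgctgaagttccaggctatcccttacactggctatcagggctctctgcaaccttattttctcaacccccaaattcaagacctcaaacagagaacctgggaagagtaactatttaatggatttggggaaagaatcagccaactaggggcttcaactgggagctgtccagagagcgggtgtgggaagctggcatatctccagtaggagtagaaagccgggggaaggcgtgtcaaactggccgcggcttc

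Zbp1 encodes a sensor that binds Z-form DNA and RNA and recruits RIPK3 through a shared motif. The gene (ENSMUSG00000027514) lies at chr2:173048405-173060716 on the minus strand, where coordinates here and for the next genes are those of the deposited table, for which the submitters' processing notes name GRCm39. It had 159, 170.1 and 166 CPM in V1, V2 and V3, and 2.42, 1.52 and 1.41 CPM in T4, T5 and T6. The β-SITO values rest on 47, 27 and 27 counts, against 2513 to 2713 counts in the vehicle libraries. Every treated library was far below every vehicle library, and T4 was the highest of the treated ones. With means of 165 ± 5.78 and 1.78 ± 0.553 CPM (SD, n = 3), its log2 fold change was -6.52 (SE 0.115; edgeR's quasi-likelihood test, adjusted p = 3.66e-16), or 92.0-fold lower. Only 0.71% of all tested genes had a lower log2 fold change.

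Ripk1 and Ripk3 encode the paired kinases whose shared interaction motif builds the necrosome. Ripk1 (chr13:34186346-34221130, plus strand) also carries the survival signalling of TNF receptor 1, and it had 81.0, 71.7 and 87.7 CPM in the vehicle libraries against 64.2, 58.9 and 59.8 CPM in the β-SITO libraries. Its groups were apart, but the gap between V2 (71.7 CPM) and T4 (64.2 CPM) was smaller than the range within the vehicle group. The log2 fold change of Ripk1 was -0.39 (SE 0.0745; edgeR's quasi-likelihood test, adjusted p = 2.47e-04), or 1.31-fold lower. Ripk3 (chr14:56022452-56026322, minus strand), the kinase that phosphorylates MLKL, had 49.4, 50.6 and 47.7 CPM with vehicle and 22.2, 17.9 and 19.7 CPM with β-SITO. The vehicle libraries lay close together, and the treated libraries were well below them. Ripk3 fell by 1.30 on the log2 scale (SE 0.0820; adjusted p = 1.44e-09), or 2.46-fold. Ripk1 overlaps Serpinb6a, a serpin gene on the opposite strand with 3582 to 5961 counts per library and a log2 fold change of 0.19. Whether the counting used strand is not given in the sources used here, and without strand reads of the shared stretch cannot be assigned to 1 of these genes.

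Mlkl encodes the pseudokinase that forms the membrane-breaking oligomer, the last step of the pathway. The gene lies at chr8:112038429-112064809 on the minus strand and had 244, 258 and 272 CPM in V1, V2 and V3. The treated libraries had 17.0, 15.8 and 15.5 CPM, also close together, and none came near the vehicle values. Between means of 258 ± 14.0 and 16.1 ± 0.816 CPM (SD, n = 3), the log2 fold change was -4.00 (SE 0.0722; edgeR's quasi-likelihood test, adjusted p = 4.62e-16), or 16.0-fold lower. A lower log2 fold change was found for 1.99% of all tested genes.

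The caspase-8 complex comprises the adaptor Fadd, the protease Casp8, its catalytically inactive partner Cflar (cFLIP) and the TNF receptor 1 adaptor Tradd. Cflar, whose long form permits enough caspase-8 activity to cleave RIPK1 without triggering apoptosis, had 281, 291 and 322 CPM with vehicle and 94.4, 94.8 and 89.1 CPM with β-SITO. It was the one gene of this complex that fell by more than 2-fold. Its log2 fold change was -1.68 (SE 0.0652; edgeR's quasi-likelihood test, adjusted p = 3.56e-12), or 3.21-fold lower. Casp8, which lies 36.5 kb from Cflar on the same strand (chr1:58834533-58886662 and chr1:58750667-58798043), had 42.1, 46.0 and 46.2 CPM against 33.1, 27.1 and 27.6 CPM. T4 was the closest treated library to the vehicle values, and the groups did not overlap. The log2 fold change of Casp8 was -0.61 (SE 0.0840; adjusted p = 1.14e-05), or 1.53-fold lower.

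Fadd (chr7:144131055-144136200, minus strand), the adaptor that joins death receptors to caspase-8, had 29.4, 27.8 and 27.3 CPM with vehicle and 16.4, 14.6 and 17.2 CPM with β-SITO. The drop was of similar size in the 3 treated libraries and came to a log2 fold change of -0.81 (SE 0.0850; edgeR's quasi-likelihood test, adjusted p = 6.20e-07), or 1.75-fold lower. Tradd (chr8:105984918-105991241, minus strand) had 12.7, 13.9 and 12.8 CPM against 11.6, 10.3 and 11.3 CPM, on 184 to 226 counts per library. It was the gene of the set with the smallest difference, a log2 fold change of -0.24 (SE 0.0985; adjusted p = 0.0407). The call for Tradd was not stable: the adjusted p ranged from 0.0381 to 0.418 over 14 alternative settings and was not under 0.05 in 9 of them. It was 0.0678 without V1, 0.135 without V2, 0.0797 without V3, 0.218 without T5 and 0.0896 without T6, which leaves 9 of the 10 genes lower at an adjusted p under 0.05 in those settings.

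Cyld and Tnfaip3 (A20) encode deubiquitinases that edit the ubiquitin chains on RIPK1, and they act in different directions in the textbook scheme, CYLD stripping chains that hold RIPK1 in its survival complex and A20 restraining RIPK3 and NF-κB. Tnfaip3 (chr10:18876658-18891405, minus strand), whose window with κB matches is printed above, had 242, 227 and 241 CPM with vehicle and 11.0, 13.2 and 10.5 CPM with β-SITO. All treated libraries were far below all vehicle libraries. On means of 237 ± 8.46 and 11.6 ± 1.45 CPM (SD, n = 3), Tnfaip3 had a log2 difference of -4.36 (SE 0.0823; edgeR's quasi-likelihood test, adjusted p = 6.98e-16), or 20.5-fold lower. Cyld (chr8:89423656-89478573, plus strand) had 72.3, 73.2 and 84.9 CPM against 31.8, 36.6 and 37.1 CPM, with V3 above the other vehicle libraries and T4 below the other treated ones. Its log2 fold change of -1.13 (SE 0.0809; adjusted p = 6.81e-09), or 2.18-fold lower, was close to the 2-fold limit. Cyld came to -0.98 with upper-quartile scaling or with library size alone, and its adjusted p was 0.112 with glmTreat, which takes 2-fold as its null.

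**Figure D2:**
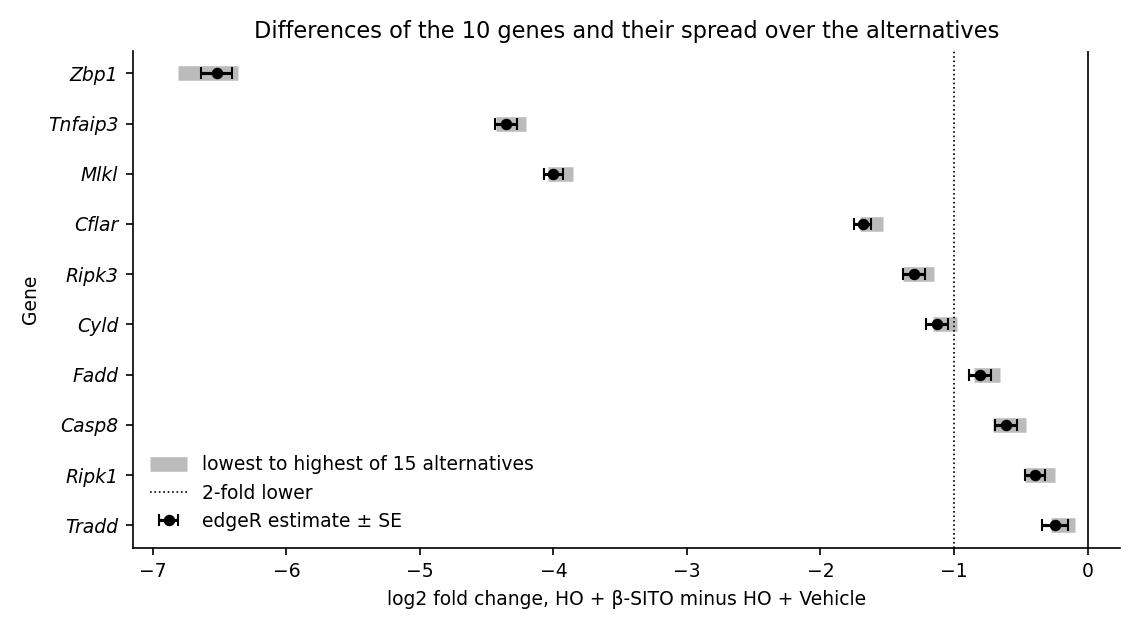
Fitted difference of each gene. The horizontal axis is the log2 fold change, HO + β-SITO minus HO + Vehicle, dots are edgeR estimates ± SE from 3 against 3 libraries, and grey bands run from the lowest to the highest of 15 alternative settings. Zbp1, Tnfaip3 and Mlkl stand apart from the rest at -6.52, -4.36 and -4.00, the band of Cyld crosses the dotted 2-fold line, and the band of Tradd ends at -0.09.

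Dividing by gene length (CPM per kb of exon) allowed the genes to be set against each other. With vehicle the order began with Mlkl at 112 CPM per kb, followed by Zbp1 (46.8), Tnfaip3 (32.8), Cflar (23.5), Ripk3 (21.5), Casp8 (15.5) and Ripk1 (9.60), and ended with Fadd (7.21), Tradd (7.03) and Cyld (6.11). Fadd and Tradd were the only neighbours in that order whose libraries overlapped. With β-SITO the per-length levels were in another order, with Casp8 (10.1 CPM per kb) and Ripk3 (8.71), whose libraries overlapped, at the head. Cflar (7.32), Ripk1 (7.31) and Mlkl (6.99) came next, with libraries that overlapped among these 3 genes but not with Ripk3 above or Tradd below, and Tradd (5.94), Fadd (4.12), Cyld (2.80), Tnfaip3 (1.60) and Zbp1 (0.504) followed. So the executor and the sensor, at the top with vehicle, were found at the fifth and the last place with β-SITO. With the longest transcript in place of all exons, a length chosen after seeing the data, Cflar moved to the third place with vehicle (45.3 CPM per kb) and to the first with β-SITO (14.1), Cyld moved above Tradd and Fadd with vehicle (9.57) and above Fadd with β-SITO (4.38), and Mlkl and Zbp1 kept their places in both groups.

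**Figure D3:**
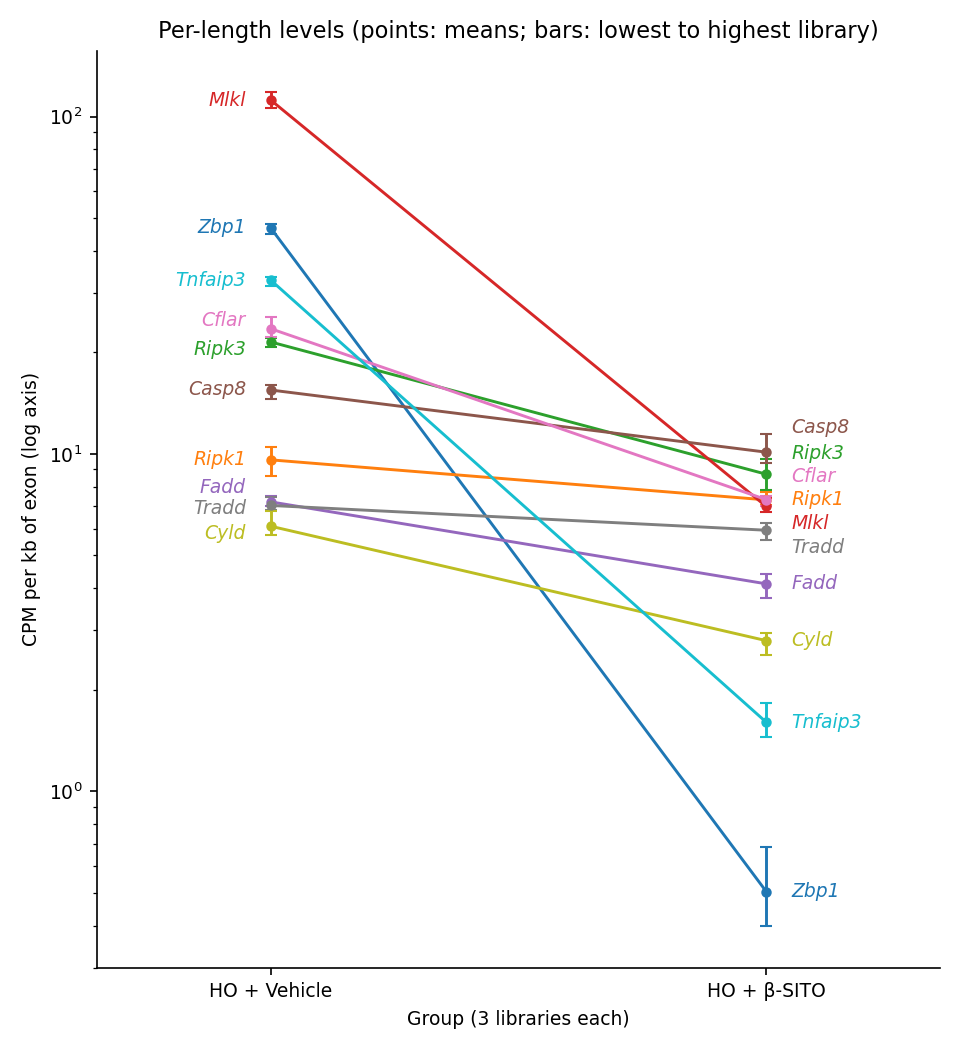
Per-length level of each gene in both groups. The vertical axis is CPM per kb of exon on a log axis, points are means of 3 libraries and bars run from the lowest to the highest library. With vehicle the genes span 6.11 to 112 CPM per kb with Mlkl at the top, and with β-SITO they span 0.504 to 10.1 with Casp8 at the top.

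Ratios of pairs within a library do not depend on how libraries are scaled to each other, and 6 were fixed. The ratio of Mlkl to Ripk3 per length, executor to its activating kinase, was 4.91, 5.08 and 5.67 with vehicle and 0.763, 0.877 and 0.780 with β-SITO, a log2 difference of -2.69 (SE 0.0884). The ratio of Zbp1 to Ripk3, sensor to kinase, was 2.09, 2.18 and 2.27 against 0.0707, 0.0550 and 0.0463, a log2 difference of -5.27 (SE 0.181). Both ratios were above 1 in each vehicle library and below it in each treated library. Ripk3 to Ripk1 went from 2.22, 2.57 and 1.98 to 1.26, 1.11 and 1.20 (log2 difference -0.92, SE 0.121), and Ripk3 to Casp8 from 1.48, 1.39 and 1.30 to 0.847, 0.834 and 0.903 (log2 difference -0.69, SE 0.0641).

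Among the brakes, Cflar to Casp8 was 1.53, 1.44 and 1.59 with vehicle and 0.651, 0.798 and 0.737 with β-SITO, a log2 difference of -1.06 (SE 0.0948). The level of this ratio, though not its difference, depended on the length used: with the longest transcript the geometric means were 2.62 and 1.25, so no statement on which of these transcripts was more abundant is made. Tnfaip3 and Cyld are not both brakes, since they act in different directions in the textbook scheme. Their ratio went from 5.84, 5.40 and 4.94 to 0.604, 0.628 and 0.491 (log2 difference -3.23, SE 0.130). For none of the 6 ratios did the groups overlap, and no share over other gene pairs is given here. Each log2 difference restates the unlike fold changes of its pair and is not a separate result. The two-sided exact permutation test gave p = 0.1 for each of the 6, adjusted p = 0.1 over them, which is the smallest value that 3 against 3 libraries allow and cannot pass 0.05.

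**Figure D4:**
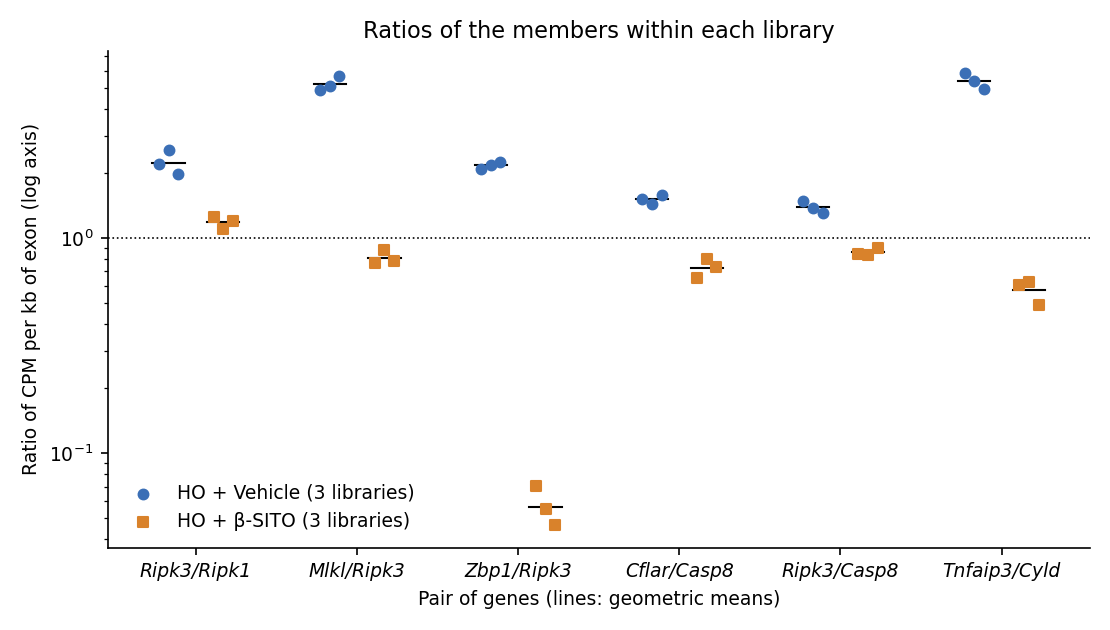
Ratios of pairs of genes within each library. The vertical axis is the ratio of CPM per kb of exon on a log axis, circles are HO + Vehicle and squares HO + β-SITO libraries (3 each), and short lines are geometric means. All squares lie below all circles of the same pair, with the widest gap for Zbp1/Ripk3 (2.18 against 0.0564) and the narrowest for Ripk3/Casp8 (1.39 against 0.860).

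The rest of the pathway, with interferon and NF-κB factors counted in, was described with 8 lists of 105 genes, of which 101 were tested. Of these, 38 (37.6%) fell by more than 2-fold, beside 10.1% of all tested genes, and 1 (0.99%) rose, beside 12.8%. The median log2 fold change over the 101 was -0.52. Interferon and NF-κB factors made up 11 of the 38 that fell. The lists were chosen with earlier results of these data known, so these shares are a description and not a test. Without any 1 of the 6 libraries 38 or 39 fell. The count that rose was 2 without V1, V2, V3, T5 or T6 and 3 without T4. Tyro3 (0.99) and Rnaseh2c (0.97), named after their values were seen, were just under 2-fold higher.

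Ligands and receptors that start the pathway held 13 tested genes, of which 6 fell and 0 rose. Tnf, the ligand of TNF receptor 1, had 42.1, 43.0 and 41.8 CPM with vehicle and 3.08, 2.36 and 2.45 CPM with β-SITO, a log2 fold change of -4.00 (SE 0.106; edgeR's quasi-likelihood test, adjusted p = 3.30e-14). Tnfsf10, the death ligand TRAIL, fell by 5.47 on the log2 scale, and Tlr3, a receptor of double-stranded RNA that signals to RIPK3, fell by 4.12. Tnfrsf1a, the gene of TNF receptor 1, differed far less, with 292, 288 and 283 CPM against 228, 226 and 234 CPM and a log2 fold change of -0.33. The other TNF receptor gene, Tnfrsf1b, was among the 6 that fell (-1.40), as was the death receptor gene Fas (-3.28). Ticam1 (TRIF), which links Toll-like receptors to RIPK3, differed by 0.22 on the log2 scale (adjusted p = 0.0229), upward and under 2-fold. Fasl was at 0 counts in all 6 libraries.

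Ubiquitin ligases and the linear chain assembly complex (LUBAC) place the chains that CYLD and A20 remove. Their list held 18 tested genes, of which 7 fell and 0 rose. It also counts genes whose proteins do not place chains, such as Otulin, Spata2, Tnip1 and Tnip2, and the last pair is among the 7. Birc2 (-2.83) and Birc3 (-3.39), the ligases cIAP1 and cIAP2 that ubiquitinate RIPK1, fell, as did Tnip1 (ABIN-1), a ubiquitin-binding partner of A20 (-3.52). Traf2, which brings the cIAPs to the receptor, had 53.4, 56.7 and 50.8 CPM against 26.1, 25.2 and 25.4 CPM, a log2 fold change of -1.07. Of 12 tested kinases and adaptors that restrain RIPK1 by phosphorylation, 4 fell and 0 rose, among them Ikbke (-2.82), Azi2 (-1.47) and Tbk1 (-1.38). Of 5 tested caspase-8 substrates 3 fell, among them Bid (-2.68), the BH3 protein that carries the signal to mitochondria, and N4bp1 (-1.27). The genes that fell thus include ligases that hold RIPK1 in its survival complex and a carrier of the death signal.

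Partners of RIPK3 and MLKL had 2 of 15 tested genes lower and 1 higher and a median log2 fold change of -0.12. Axl, a TAM receptor tyrosine kinase, fell by 1.80 on the log2 scale, and Hsp90aa1, a chaperone of RIPK3 and MLKL, by 1.13, whereas Mertk, another TAM receptor that is also a macrophage marker, rose by 1.16 on the log2 scale, with 14.5 ± 1.86 CPM for vehicle and 32.4 ± 2.80 CPM for β-SITO (SD, n = 3). Membrane repair and rupture held 17 tested genes with 2 lower and 0 higher and a median of -0.20, and neither list's share of lower genes was far from the background. The lower ones were Ninj1 (-2.07), which ruptures the membrane of dying cells, and Chmp4b (-1.42), an ESCRT-III subunit.

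Genes that limit the nucleic acids ZBP1 senses held 7 tested genes, of which 3 fell and 0 rose. Adar, whose interferon-induced form has a Z-binding domain like that of ZBP1 and edits double-stranded RNA, had 246, 219.5 and 231 CPM with vehicle and 41.0, 39.0 and 37.6 CPM with β-SITO, a log2 fold change of -2.57 (SE 0.0659; edgeR's quasi-likelihood test, adjusted p = 2.28e-14). Both Z-binding genes were thus lower, Adar by 5.92-fold and Zbp1 by 92.0-fold. Samhd1, a dNTPase, fell by 3.29 on the log2 scale and Morc3, a chromatin regulator, by 1.27, and Trex1 is listed at 0 in all 6 libraries. The list with the largest share was that of interferon and NF-κB factors, with 11 of 14 tested genes lower, 0 higher and a median of -2.27. It holds transcription factors, among them Irf7 (-6.85) and Irf1 (-3.51), and also the NF-κB inhibitors Nfkbia (-2.78) and Nfkbib (-2.03), which are counted among the 11.

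**Figure D5:**
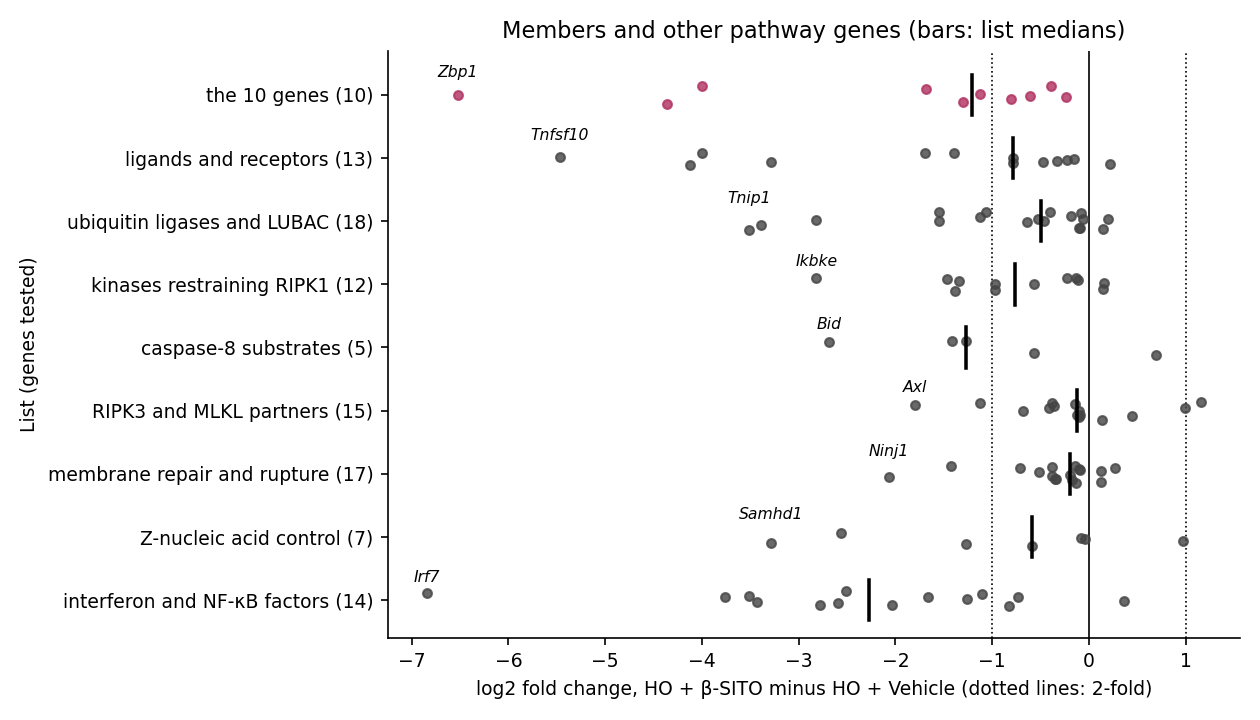
Differences of the 10 genes and of the other pathway genes by list. The horizontal axis is the log2 fold change, HO + β-SITO minus HO + Vehicle, each point is 1 tested gene, thick bars are list medians, dotted lines mark 2-fold in either direction, and the leftmost gene of each list is named. The interferon and NF-κB factors have the lowest median (-2.27), and the RIPK3 and MLKL partners the highest (-0.12).

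The nearest tested genes on either side of the 10 on the chromosome were also compared, and their distances ran from 0.039 to 576 kb. Of the 18 nearest tested neighbours that are not themselves among the 10, 1 fell by more than 2-fold, 4 rose and 13 did neither. Over all tested genes 10.1% fell and 12.8% rose, and with 18 neighbours these counts are not read as a difference from those shares. The one that fell was Nod2, a bacterial sensor 8.55 kb from Cyld, with a log2 fold change of -3.10 on 9 to 107 counts per library. The 4 that rose were Pmepa1, Nfatc4 (34.3 kb from Ripk3), Ano1 (6.09 kb from Fadd) and Sall1 (275 kb from Cyld). Counts were low for Ano1 (21 to 97 per library) and Sall1 (8 to 79). Pmepa1, 5.54 kb from Zbp1 on the same strand, rose by 1.02 on the log2 scale, opposite in direction to Zbp1. Apart from Serpinb6a, no gene that overlaps one of the 10 had more than 8 counts in any library.

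Cell type markers moved with the groups as well. Beside the marker counts that follow stand the shares over all tested genes, 12.8% higher and 10.1% lower by more than 2-fold. Macrophage markers, led by Lyz2 (lysozyme), summed to 1408 to 1539 CPM with vehicle and to 3022 to 3705 CPM with β-SITO, with T4 the highest, and 10 of 16 rose by more than 2-fold while 3 fell. Fibroblast markers, led by Col3a1, summed to 30194 to 31455 against 45272 to 46408 CPM, with 3 of 12 higher and 0 lower. Per kb of exon the fibroblast sum exceeded the cardiomyocyte sum in all 6 libraries, at 3774 to 3868 against 2946 to 3362 CPM per kb with vehicle and 5634 to 5800 against 2887 to 5510 CPM per kb with β-SITO. These cultures, labelled as cardiomyocytes, thus also carried fibroblast transcripts.

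Of the endothelial markers, 11 of 12 rose and Flt1, the most abundant with vehicle, fell, with sums of 707 to 829 against 1019 to 1075 CPM and Cdh5 the most abundant with β-SITO. Smooth muscle and pericyte markers, led by Acta2, summed to 1191 to 1298 against 2136 to 2428 CPM, with 6 of 10 higher. Cardiomyocyte markers had 5 of 20 higher by more than 2-fold (Myh7, Myl4, Myl7, Nppa and Nppb) and 0 lower. At an adjusted p under 0.05 without the fold limit, 9 were higher and 2 lower, Tnnt2 (-0.47) and Pln (-0.42). Neutrophil markers, of which only Csf3r was tested and fell, summed to 14.8 to 16.4 against 3.82 to 5.55 CPM, with Ly6g and Retnlg at 0. Lymphocyte markers, led by Cd4, summed to 0.496 to 1.13 against 2.0 to 2.9 CPM, with Cd3e, Cd3d and Ncr1 among those at 0. Dendritic cell markers, led by Zbtb46, summed to 16.9 to 19.0 against 19.9 to 21.9 CPM, with Siglech and Cd209a at 0. Few counts lay behind the higher Cd4 (5, 11 and 3 against 35, 37 and 38). Of 4 tested dendritic genes, 1 was higher (Clec9a, 2, 5 and 2 against 20, 23 and 18 counts). In the same list 1 was lower (Batf3, 21, 26 and 29 against 7, 5 and 4 counts). The filter can keep such genes through the group where they are high, so nothing is read from these calls. Mitochondrially encoded genes took 1.19 to 1.32% of counts with vehicle and 1.87 to 2.26% with β-SITO. The part of these differences in the levels of the 10 genes was not tested. Without T4, the treated library that stood apart and held the highest treated value of 6 of the 10 genes, the same 6 genes were called lower by more than 2-fold, with log2 fold changes of -6.81 for Zbp1, -1.38 for Ripk3 and -0.71 for Casp8.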

How the data were processed

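The authors extracted total RNA of NMCMs, sequenced libraries made from it as paired-end reads and deposited 1 table of raw gene counts for all 6 libraries, without normalization. The submitters' processing notes name FastQC, HISAT2, featureCounts and GRCm39, and the counting options are not given in the sources used here. The library kit is named as an ABclonal mRNA-seq kit by the study and as Illumina TruSeq by the labels. Groups were taken from the sample titles. Counts were filtered with filterByExpr, which left 14799 of 57010 genes, scaled by TMM (factors 0.945 to 0.956 with vehicle and 1.05 to 1.06 with β-SITO) and tested with the quasi-likelihood test of edgeR 4.0.16 in R 4.3.3, with Benjamini-Hochberg adjustment over all tested genes. The biological coefficient of variation was 6.52%. The scripts were tested on simulated data. Called genes had an adjusted p under 0.05 and a change of more than 2-fold, as in the study. Replicate numbers are not shared between the groups, so no block was fitted.

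Gene lengths came from GENCODE release M21, matched by gene identifier only, and promoter windows from RefSeq. Ratios were tested by two-sided exact permutation (scipy 1.17.1). Depth limits low genes, such as Zbp1 with β-SITO. The genes and lists were chosen with earlier results of these data known. Named from each list were the 3 largest decreases and 3 largest increases among called genes without overlap, plus Tnf, Tnfrsf1a, Adar, Birc2, Birc3, Traf2 and Ticam1, and the most abundant marker of each list. Some genes chosen by this rule are left out of the text. Alternatives were DESeq2 1.42.0, limma-voom (limma 3.58.1), glmTreat, other scalings and filters, removal of mitochondrial genes and of each library in turn, and, for ratios, raw counts.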

Additional observations from a re-analysis of the deposited data

How the results depend on the processing

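All 10 genes kept a negative log2 fold change in each of 15 alternatives, and 9 of them stayed on the same side of the called threshold in all 15. The exception was Cyld, at -0.98 with upper-quartile scaling, -0.98 with library size alone, and an adjusted p of 0.112 with glmTreat, so that 5 genes were called lower in those 3 settings. At an adjusted p under 0.05 with no fold limit, the count was 9 with DESeq2, upper-quartile scaling, library size alone or no filter on low counts, since Tradd did not pass there. No gene of the 10 was called higher in any alternative. The count of other pathway genes called lower, 38 in the main analysis, was 34 with glmTreat, upper-quartile scaling or library size alone, and 38 or 39 in the other settings. The count of other pathway genes called higher, 1 in the main analysis, was 0 with glmTreat, 3 with upper-quartile scaling, 3 with library size alone, and 2 to 3 with 1 library left out. The cause of these shifts was not tested. Upper-quartile scaling and library size alone moved the median of all genes by 0.14 and 0.15 on the log2 scale and the share of lower genes among all calls from 44.1% to 36.3% and 36.1%. The 6 ratios kept their direction with each library left out (Mlkl/Ripk3 -2.76 to -2.63, Ripk3/Ripk1 -1.01 to -0.82), where 3 against 2 libraries cannot reach 0.05. Summed endothelial markers were higher by 0.44 on the log2 scale, and the median of their log2 fold changes was 1.88. No paired analysis was possible because the groups share no replicate number. The low count of Zbp1 with β-SITO limits its fold, which ranged from -6.81 to -6.36 on the log2 scale with 1 library left out.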
